A study of Danio rerio with 8 samples.

Results

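The genes described here are 7 zebrafish (Danio rerio) genes of the oocyte and the germ plasm: zar1, zar1l, mos, buc, dazl, ddx4 and celf1. They were chosen by symbol, with earlier results of these data known. Each symbol matched 1 of the 33633 gene identifiers carried by all 4 deposited files: ENSDARG00000019706 (zar1), ENSDARG00000055973 (zar1l), ENSDARG00000069744 (mos), ENSDARG00000096095 (buc), ENSDARG00000036214 (dazl), ENSDARG00000014373 (ddx4) and ENSDARG00000005315 (celf1). All 7 were above 0 in every group. Of these, 5 passed the filter on low values, and zar1l and mos fell below it and are given by their values.

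Ribosome footprints, the stretches of mRNA that a ribosome shields from nuclease, were sequenced from whole embryos at 4 hours post fertilization (hpf), a blastula stage. The values are called footprints here after the labels' protocol, which describes nuclease digestion and size selection of the fragments, whereas the labels' molecule entry reads polyA RNA, and which of them describes the libraries was not tested. The 8 samples formed 4 groups of 2. KO_FL embryos carried the Ddx3xb-/Ddx3xb- genotype and were injected with ddx3xbFL, KO_dN embryos carried the same genotype and were injected with ddx3xb deltaN, KO embryos carried it with no injection named, and WT embryos were wild type. The product of ddx3xb is an RNA helicase of the DEAD-box family DDX3, known to act in translation initiation. What the mutant allele still encodes, the form and dose in which either construct was injected, and whether the mothers of the mutant embryos were themselves mutant are not given in these sources. No group was a mutant injected with a control.

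An embryo at this stage still holds mRNAs and proteins that the mother placed in the egg, and these maternal stores are being cleared while the embryo's own genome starts to be transcribed. In growing oocytes many stored mRNAs are kept silent by RNA-binding proteins and are translated later, at meiotic maturation or after fertilization. zar1 and its paralogue zar1l encode RNA-binding proteins with a conserved zinc-binding C-terminal region. Zar1 is known from zebrafish for its need in oocyte development. mos encodes the kinase that activates the MAP kinase pathway in maturing vertebrate oocytes. Germ plasm is the maternally made cytoplasm that specifies germ cells in zebrafish. Buc organizes it, dazl and ddx4 (also called vasa) encode an RNA-binding protein and a DEAD-box helicase of germ cells, and celf1 encodes an RNA-binding protein whose mRNA or protein is found with germ plasm and whose relatives are known for promoting deadenylation.

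Each file held 1 FPKM value per gene and group (a fragment count divided by transcript length and by the mapped fragments of the library), made by the authors from both samples of a group. Every value below is therefore given without a replicate error, no p-value can be computed, and no difference below has a replicate check. FPKM stood far apart between groups for most genes: the median over 6356 retained genes was 2.28 in KO_FL, 1.103 in KO_dN, 1.87 in KO and 10.6 in WT. Values were therefore also divided by 1 factor per group (0.90 for KO_FL, 0.45 for KO_dN, 0.73 for KO and 3.40 for WT). The divided values are called scaled FPKM. The factors were set so that the typical gene among those reaching 1 FPKM in every group is level. The median over the retained genes was then 2.53 scaled FPKM in KO_FL, 2.47 in KO_dN, 2.56 in KO and 3.11 in WT. Retained genes are those averaging at least 1 scaled FPKM over the groups, and a log2 ratio is log2((a + 1)/(b + 1)) of scaled FPKM, which understates the change of low genes. The sources used here do not give the number of reads per library. Low FPKM values step by the worth of a single read. From these steps the libraries had 27.2% to 100% of the depth of the deepest, with both WT libraries the shallowest (27.2% and 34.6%). This assumes the same scale in all 4 files, and the ratios used held 12.7% to 15.9% of the low genes compared. Depth here means mapped fragments and not reads on the listed genes. WT had the most identifiers above 0, at 23670, against 20623 in KO_FL, 18078 in KO_dN and 19442 in KO. The WT gene values are therefore not shown to be the least well sampled. All 7 levels are footprints per mapped fragment, so that more mRNA, more ribosomes per mRNA, and more or fewer cells holding that mRNA cannot be told apart.

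The tissue label was set beside a list of blastula factors, chosen with earlier results of these data known. The pluripotency gene nanog stood at 73.6 FPKM in KO_FL, 40.8 in KO_dN, 69.7 in KO and 117.9 in WT, and pou5f3 at 38.3, 16.8, 29.1 and 107.5 in the same order. Of 12 matched blastula genes, 10 passed the filter. In KO / WT 1 of these (nanog) was at least 2-fold higher on scaled values (12.2% of all retained genes) and 3 were lower (20.4%). Of the lower ones, tbx16 stood at 5.73 FPKM in KO_FL, 0.881 in KO_dN, 1.02 in KO and 33.5 in WT, and noto at 6.84, 1.04, 1.67 and 19.7 in the same order. The third, mych, stood at 9.71, 3.00, 4.61 and 77.7. The remaining matched genes did not pass the filter: cdx4 was listed at 0 in KO_FL, KO_dN and KO and stood at 0.0920 in WT, and SOX2 was at most 0.189. Of 13 symbols of later tissues, 8 matched an identifier and 0 passed the filter. The targeted gene ddx3xb stood at 76.7 FPKM in KO_FL, 126.5 in KO_dN, 14.7 in KO and 128.9 in WT. On the scaled values that was 85.0, 283.2, 20.1 and 37.9, so footprints on this gene were present in KO as well.

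The oocyte factor zar1 was low in WT and high in all 3 mutant groups. It stood at 42.5 FPKM in KO_FL, 18.4 in KO_dN and 32.5 in KO, against 4.18 in WT. All 3 mutant values lay above the WT value as deposited, which was the case for 234 of the 6356 retained genes (3.68%). On scaled values zar1 stood at 47.1 in KO_FL, 41.2 in KO_dN and 44.5 in KO, against 1.23 in WT. The 3 mutant groups were thus within 1.14-fold of each other on this scale, and WT stood apart.

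Measured against WT, the scaled zar1 level was 38.3-fold in KO_FL, 33.5-fold in KO_dN and 36.2-fold in KO. With the pseudocount the log2 ratios were 4.43 (KO_FL / WT), 4.24 (KO_dN / WT) and 4.35 (KO / WT), placing zar1 26th, 43rd and 41st from the top of the 6356 genes. The retained genes include 105 that were listed at 0 in WT. Among the 6251 that were above 0 in WT, zar1 was 9th, 25th and 22nd. Within a group, zar1 lay at percentile 94.1 of the retained genes in KO_FL, 94.0 in KO_dN and 94.6 in KO, against 16.9 in WT. Scaling between groups cannot change the order of genes within a group, but it enters the choice of retained genes. The WT percentile thus depends on the filter, as zar1 stood there at 1.23 scaled FPKM. Among all identifiers above 0, a set free of scaling, zar1 lay at 98.2 in KO_FL, 97.9 in KO_dN and 98.2 in KO, against 75.02 in WT. Of the 1075 retained genes at or below zar1 in WT, 10 stood above it in KO_FL, 13 in KO_dN and 6 in KO.

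**Figure D1:**
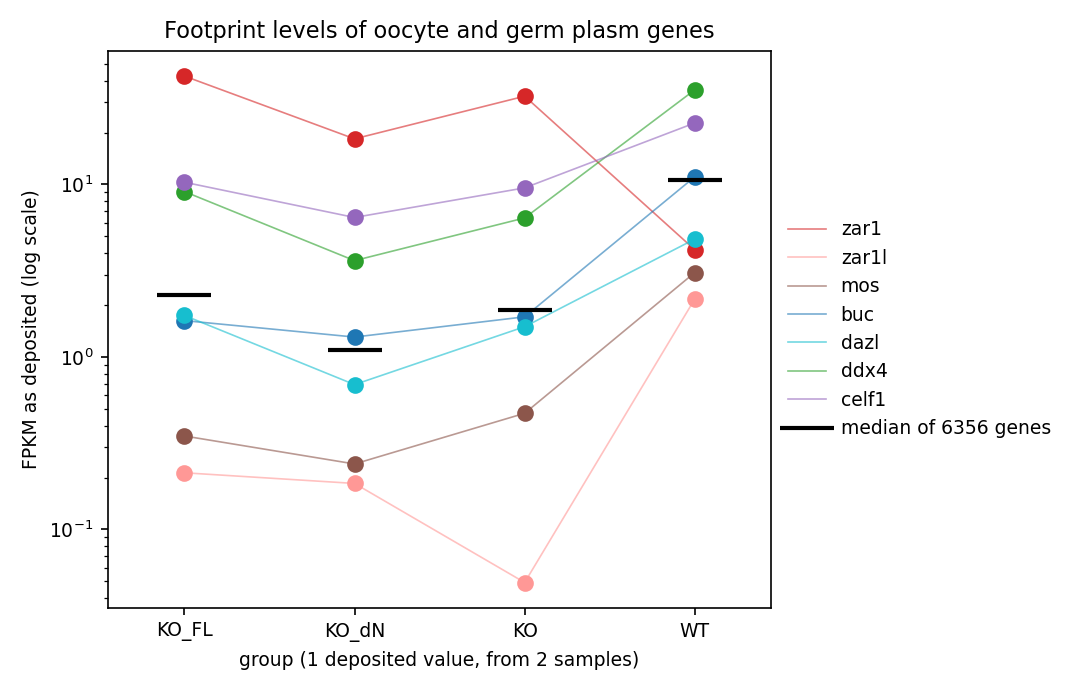
Deposited FPKM on a log axis (y) of the 7 genes in each group (x), 1 point per gene and group, with lines joining points of a gene and black bars at the median of the 6356 retained genes. zar1 (red) is the highest of the 7 in KO_FL, KO_dN and KO and the fifth in WT, while the other genes are highest in WT, as is the median gene.

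Few genes lay near the zar1 profile, on a distance that counts the size of a change as well as its direction. Genes that change little thus have more neighbours than genes that change much. On scaled values 375 of the 6356 retained genes (5.9%) were at least 2-fold above WT in all 3 mutant groups. The distance between profiles was the Euclidean distance of log2(scaled FPKM + 1) over the 4 groups after each gene's mean was taken off, and only 4 other genes with a symbol lay within 0.5 of zar1, against 1481 for ddx4, 1263 for dazl, 1072 for buc and 640 for celf1. The nearest of them was SNORA73, a small nucleolar RNA gene, at 110.4 FPKM in KO_FL, 55.2 in KO_dN, 72.8 in KO and 16.1 in WT (distance 0.29). The second was MIR455, a microRNA gene, at 20.3 FPKM in KO_FL, 7.67 in KO_dN and 10.2 in KO and listed at 0 in WT (0.43). The third was SLC38A3, an amino acid transporter gene, at 22.6 FPKM in KO_FL, 7.30 in KO_dN, 11.7 in KO and 0.62 in WT (0.46). The first and second neighbours are thus non-coding RNA genes, whose reads in a footprint library are not ribosome footprints of a coding sequence. What kind of fragment the zar1 reads were could not be read from values per gene.

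At or above the lowest of the 3 zar1 ratios in all 3 mutant groups stood 12 further genes, 6 of them listed at 0 in WT. Of the 12, 6 had a symbol, and they are named here after their values were seen. They include fmn2a, which encodes a formin, at 77.4 FPKM in KO_FL, 50.3 in KO_dN, 143.7 in KO and 9.04 in WT, and QKI, which encodes an RNA-binding protein, at 73.0, 34.5, 80.2 and 5.55 in the same order. The others were NKX2-1, YWHAG, MIR92A1 and an identifier named 5S_rRNA. Its own lowest ratio was the bound, so zar1 belongs to this set by definition. None of the others of the 7 genes reached the bound.

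The paralogue zar1l, unlike zar1, was highest in WT as deposited, as were the other 5 genes and the median gene. It stood at 0.213 FPKM in KO_FL, 0.185 in KO_dN and 0.0493 in KO, against 2.17 in WT. Within WT zar1 was 1.93 times zar1l, whereas within KO_FL it was 199.3 times, within KO_dN 99.4 times and within KO 659.2 times. These ratios within a group are per length and do not depend on the scaling between groups. The zar1l value of KO was among the lowest 22.8% of the values above 0 in that group, and the number of reads behind it is not known. On scaled values zar1l was 0.236 in KO_FL, 0.414 in KO_dN and 0.0675 in KO, against 0.638 in WT, with log2 ratios to WT of -0.41, -0.21 and -0.62. These signs depended on the scale: on deposited values centred on the median gene the ratios were 0.33 in KO_FL, 0.94 in KO_dN and 0.35 in KO. Against WT its scaled level without a pseudocount was 0.37-fold in KO_FL, 0.65-fold in KO_dN and 0.11-fold in KO.

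mos, the oocyte kinase gene, was low in all groups. It stood at 0.348 FPKM in KO_FL, 0.240 in KO_dN and 0.472 in KO, against 3.09 in WT. On scaled values it was 0.386, 0.537 and 0.645 in KO_FL, KO_dN and KO, against 0.908 in WT, or 0.43-fold, 0.59-fold and 0.71-fold of WT. With the pseudocount its log2 ratios to WT were -0.46 for KO_FL, -0.31 for KO_dN and -0.21 for KO, and on deposited values centred on the median gene they were 0.11, 0.64 and 0.47 in the same order. zar1 was 122.0 times mos in KO_FL, 76.7 times in KO_dN and 68.9 times in KO, against 1.35 times in WT.

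buc, the organizer of germ plasm, stayed within 2-fold of WT on scaled values in every mutant group. It stood at 1.62 FPKM in KO_FL, 1.30 in KO_dN and 1.71 in KO, against 11.1 in WT. Scaled, these were 1.80, 2.92 and 2.34 in KO_FL, KO_dN and KO, against 3.26 in WT, with log2 ratios to WT of -0.60, -0.12 and -0.35. Its percentile among retained genes was 36.5 in KO_FL, 56.0 in KO_dN and 46.6 in KO, against 51.7 in WT. WT was the highest of the 4 for buc as deposited and on scaled values, and KO_FL the lowest on scaled values; with quantile normalization the KO_dN / WT ratio was 0.13.

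The germ cell RNA-binding protein gene dazl stood at 1.74 FPKM in KO_FL, 0.692 in KO_dN and 1.498 in KO, against 4.82 in WT. Scaled, it was 1.93 in KO_FL, 1.55 in KO_dN and 2.05 in KO, against 1.42 in WT, and the log2 ratios to WT were 0.28, 0.08 and 0.33. As deposited dazl was thus highest in WT, and scaled it was lowest there. Its percentile was 39.6 in KO_FL, 29.2 in KO_dN and 40.9 in KO, against 20.4 in WT.

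The helicase gene ddx4 stayed within 2-fold of WT on scaled values in every mutant group. It stood at 9.09 FPKM in KO_FL, 3.62 in KO_dN and 6.40 in KO, against 35.4 in WT. Scaled, these became 10.1 in KO_FL, 8.10 in KO_dN and 8.76 in KO, against 10.4 in WT. The log2 ratios to WT were -0.04, -0.33 and -0.23, and with quantile normalization 0.22, 0.02 and 0.10. Its percentile was 83.7 in KO_FL, 81.9 in KO_dN and 82.7 in KO, against 81.7 in WT. ddx4 was the highest of the 7 genes in WT, at 42.4% of their summed FPKM, and celf1 the next at 27.2%. zar1 held 64.6% of that sum in KO_FL, 59.6% in KO_dN and 62.3% in KO, against 5.01% in WT.

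The scaled ratios of celf1 to WT lay between those of ddx4 and zar1, and much nearer to those of ddx4. It stood at 10.3 FPKM in KO_FL, 6.44 in KO_dN and 9.56 in KO, against 22.7 in WT. Scaled, it was 11.4 in KO_FL, 14.4 in KO_dN and 13.1 in KO, against 6.69 in WT, so all 3 mutant groups lay above WT on this scale and below it as deposited. The log2 ratios to WT were 0.69 (KO_FL), 1.00 (KO_dN) and 0.87 (KO), of which the KO_dN one lies just past 2-fold and the KO one just short of it. Its percentile was 85.3 in KO_FL, 88.5 in KO_dN and 87.3 in KO, against 72.9 in WT. Within a group, celf1 was 1.133 times ddx4 in KO_FL, 1.78 times in KO_dN and 1.49 times in KO, against 0.64 times in WT.

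**Figure D2:**
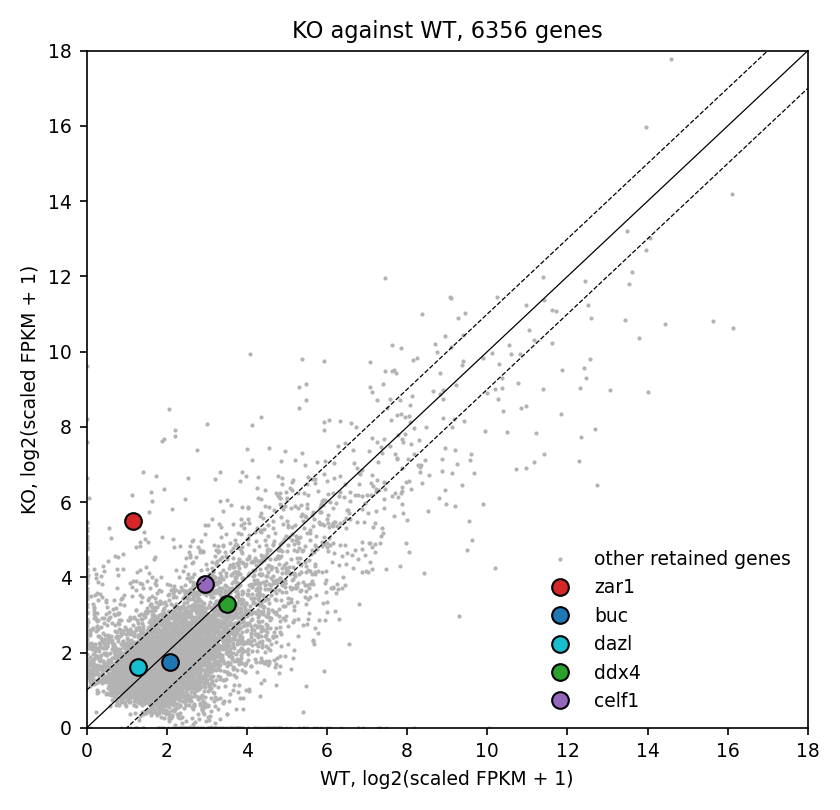
Levels in KO (y) against WT (x), as log2(scaled FPKM + 1), of the 6356 retained genes in grey and the 5 retained genes of the oocyte and germ plasm set in colour; the solid line marks equal levels and the dashed lines 2-fold. zar1 lies far above the upper dashed line, at a log2 ratio of 4.35, and buc, dazl, ddx4 and celf1 lie between the dashed lines.

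The comparison of KO with WT asks how footprints differ in ddx3xb mutant embryos. Of the 5 retained genes, 1 (zar1) was at least 2-fold higher in KO and 0 were lower, where 12.2% of all retained genes were higher and 20.4% lower. The median of the 5 was 0.33 and that of all retained genes -0.19. In KO_FL / WT, again 1 of the 5 was at least 2-fold higher (9.88% of all retained genes) and 0 were lower (16.5%), with a median of 0.28 against -0.17 for all. In KO_dN / WT, 2 of the 5 were higher, zar1 and celf1 (12.5%), and 0 lower (21.7%), with a median of 0.08 against -0.22. These 3 comparisons share the WT file, and that file was laid out unlike the others. Whether it was processed in the same run is not stated in these sources. A property of the WT libraries or of the processing of that file would enter all 3 alike.

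The comparisons of injected with uninjected mutants ask what either ddx3xb construct changed. All 5 retained genes were within 2-fold of KO in both. In KO_FL / KO, 0 of the 5 retained genes were at least 2-fold higher (5.55% of all retained genes) and 0 lower (3.9%). The ratios ran from -0.25 (buc) to 0.18 (ddx4), and zar1 had 0.08. In KO_dN / KO, 0 were higher (3.04%) and 0 lower (2.17%), with a range from -0.26 (dazl) to 0.23 (buc), and zar1 at -0.11. Both comparisons share the KO file.

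zar1l differed most between mutant groups in relative terms, on levels below the filter. Its scaled level was 3.50-fold that of KO in KO_FL and 6.14-fold in KO_dN, and with the pseudocount the log2 ratios shrank to 0.21 and 0.41. The scaled levels of the other 6 genes differed by at most 1.67-fold among the 3 mutant groups, that of mos.

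The comparison of KO_FL with KO_dN sets the constructs side by side. Of the 5 retained genes, 0 were at least 2-fold higher (5.33% of all) and 0 lower (4.88%). Ratios ran from -0.48 for buc to 0.28 for ddx4, with zar1 at 0.19 and a median of 0.19, where that of all retained genes was 0.03. As deposited, without scaling, zar1 was 2.31-fold, dazl 2.52-fold and ddx4 2.51-fold higher in KO_FL than in KO_dN, and the median retained gene had a log2 ratio of 0.62 on that scale with a pseudocount.

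**Figure D3:**
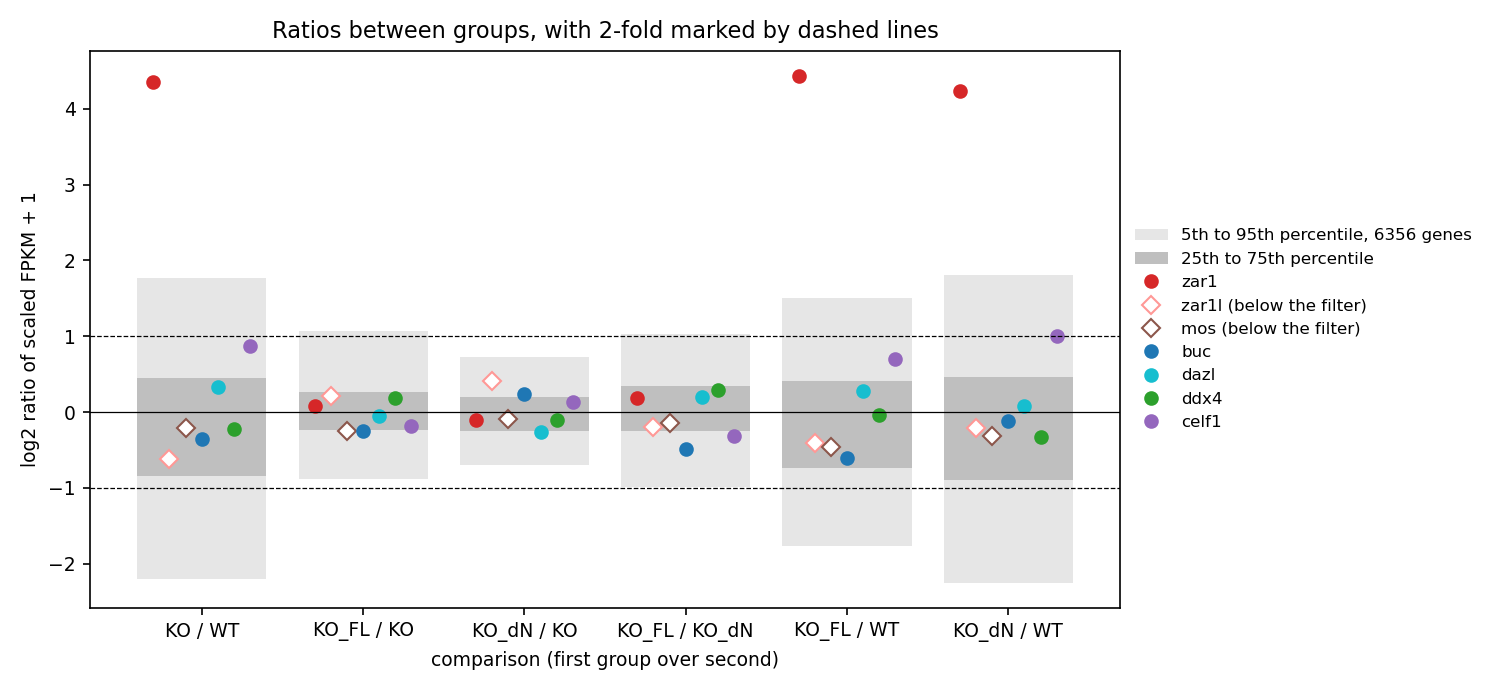
Log2 ratios (y) of the 7 genes in the 6 comparisons (x, first group over second), with open diamonds for zar1l and mos, which were below the filter, light grey bands for the 5th to 95th percentile of all retained genes and dark ones for the 25th to 75th. zar1 lies between 4.24 and 4.43 in the 3 comparisons with WT and within the dark band in the 3 comparisons among mutant groups; the other genes stay inside the light bands throughout.

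Other genes of the oocyte were read from a list of 49 symbols, of which 39 matched an identifier and 26 were retained, zar1 and buc included. In KO / WT, 6 of the 26 were at least 2-fold higher (12.2% of all retained genes) and 6 lower (20.4%), with a median of 0.11 against -0.19 for all. Beside zar1, the highest were cth1, which encodes a zinc finger protein, at 17.96 FPKM in KO and 20.7 in WT (1.85 on the scaled log2 ratio), and the claudin gene cldng at 17.9 and 22.0 (1.77). The lowest were the mitotic kinase genes plk1 at 3.26 FPKM in KO and 71.3 in WT (-2.01) and aurka at 0.894 and 25.2 (-1.92). The oocyte list was spread to both sides, and zar1 at 4.35 lay apart from the next of its genes at 1.85. The list also holds genes of cell division. Of these, plk1, aurka and fbxo5 (-1.69) were among the lower genes, and CCNB2 (1.30) among the higher.

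In KO_FL / WT, 4 oocyte genes with zar1 among them were higher (9.88% of all retained genes) and 4 lower (16.5%), with a median of -0.25 against -0.17 for all. In KO_dN / WT, 5 were higher (12.5%) and 4 lower (21.7%), with a median of 0.02 against -0.22. In both comparisons the lower genes were thus no larger a share of the list than of all retained genes. The higher genes were a larger share, on counts of 4 and 5 that include zar1. Without zar1 and buc, 3 of 24 were higher in KO_FL / WT and 4 of 24 in KO_dN / WT. Between mutant groups, the counts past 2-fold were near the shares among all retained genes. In KO_FL / KO, aurka was at 3.23 FPKM in KO_FL and 0.894 in KO (1.04) and cth1 at 10.3 and 17.96 (-1.04), 1 gene in each direction (5.55% of all retained genes higher and 3.9% lower). Next to them stood fbxo5, an inhibitor gene of the anaphase-promoting complex, at 8.16 FPKM in KO_FL and 3.87 in KO (0.67), and the cyclin gene CCNB2 at 31.5 and 50.1 (-0.95). In KO_dN / KO, 0 of the 26 passed 2-fold in either direction (3.04% and 2.17% of all). The highest were patl2 at 1.21 FPKM in KO_dN and 0.655 in KO (0.97) and plk1 at 4.18 and 3.26 (0.92), and the lowest org at 0.559 and 2.202 (-0.83) and cldnd at 3.89 and 10.2 (-0.63). In KO_FL / KO_dN, 1 of the 26 was higher (5.33% of all retained genes) and 1 lower (4.88%). They were org at 3.37 FPKM in KO_FL and 0.559 in KO_dN (1.07) and CCNB2 at 31.5 and 46.4 (-1.54).

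Germ plasm genes came from a list of 31 symbols, of which 21 matched an identifier and 14 were retained, buc, dazl, ddx4 and celf1 among them. In KO / WT, where 12.2% of all retained genes were higher and 20.4% lower, 1 was at least 2-fold higher, PIWIL1, which encodes a PIWI protein of germ cells, at 4.15 FPKM in KO and 4.22 in WT (1.57), and 1 lower, ASZ1 at 0.532 and 9.04 (-1.08). hook2 was at 9.11 and 25.5 FPKM (0.66) and ca15b at 1.59 and 17.7 (-0.96). The median of the list was -0.16, beside -0.19 over all retained genes.

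Against WT, KO_FL had 1 germ plasm gene higher (9.88% of all retained genes) and 0 lower (16.5%), with a median of -0.23 against -0.17 for all. KO_dN had 2 higher (12.5%) and 3 lower (21.7%), with a median of -0.33 against -0.22, and these counts of 14 are near the shares among all. In KO_FL / KO, 0 of the 14 passed 2-fold either way (5.55% of all retained genes higher and 3.9% lower). In KO_dN / KO it was again 0 (3.04% and 2.17%). PIWIL2 was the lowest in both, at 1.55 FPKM in KO_FL and 0.760 in KO_dN against 2.24 in KO (-0.58 and -0.59). Beside ddx4, the highest in KO_FL / KO were ca15b at 2.37 FPKM in KO_FL and 1.59 in KO (0.19) and IGF2BP3 at 7.79 and 5.57 (0.16), with hook2 the second lowest (-0.34). In KO_dN / KO buc (0.23) and celf1 (0.13) were the highest, and next to them stood ASZ1 at 0.394 FPKM in KO_dN and 0.532 in KO (0.12) and TDRD1 at 0.472 and 0.784 (-0.01), with ca15b the second lowest (-0.40).

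**Figure D4:**
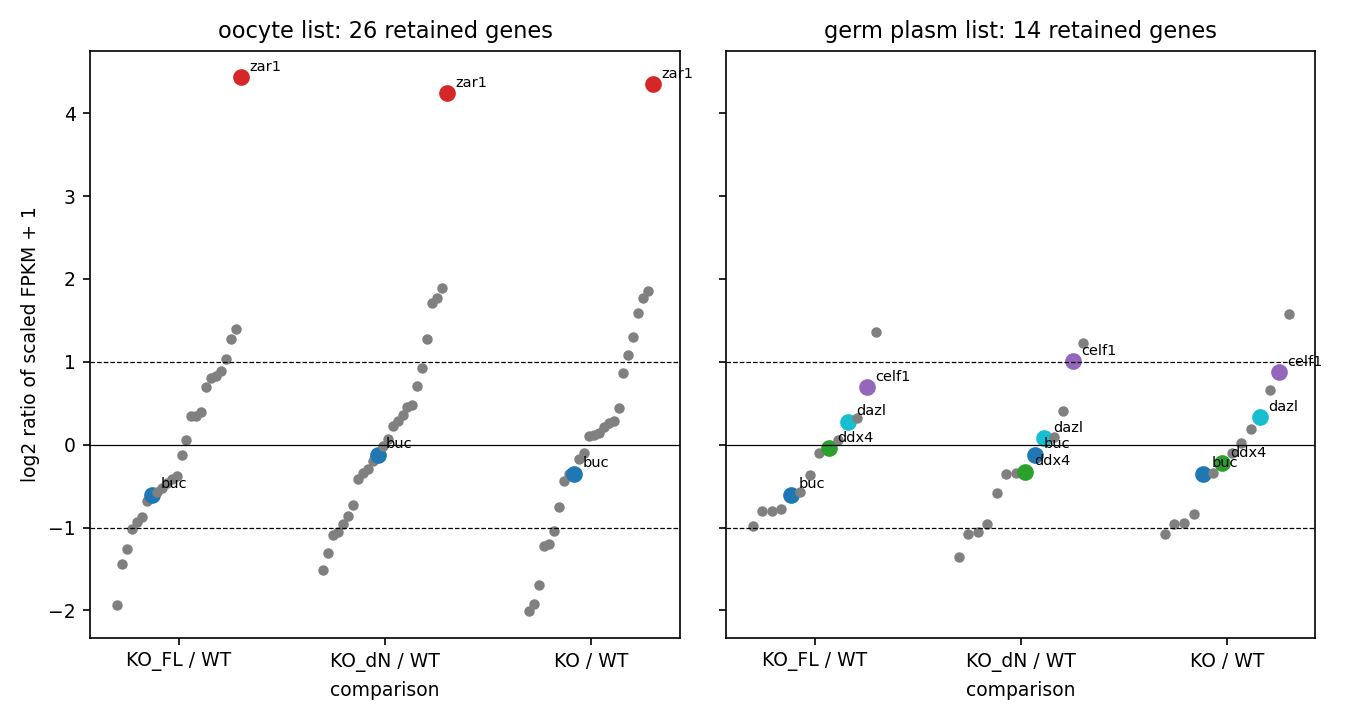
Log2 ratios to WT (y) of the retained genes of the oocyte list (left, 26 genes) and the germ plasm list (right, 14 genes) in 3 comparisons (x), sorted within each, with zar1, buc, dazl, ddx4 and celf1 in colour and dashed lines at 2-fold. zar1 stands apart at the top of the oocyte list at 4.24 to 4.43, and the germ plasm genes spread around 0.

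Markers of other cells and of the libraries moved between groups as well. The summed scaled FPKM of 9 matched enveloping layer markers was 94.3 in KO_FL, 44.1 in KO_dN, 49.7 in KO and 92.9 in WT, and that of 7 yolk syncytial layer markers 164.4, 97.0, 114.5 and 127.8 in the same order. Most of the second sum was 1 gene, ctsla, at 142.1, 89.6, 109.0 and 110.4. Of the 8 retained enveloping layer markers, 0 were at least 2-fold higher in KO_FL / WT (9.88% of all retained genes). In that comparison 1 was lower, grhl3 (16.5%). In KO_FL / KO 5 of the 8 were higher (5.55%) and 0 lower (3.9%), with a median log2 ratio of 1.56. In the order KO_FL, KO_dN, KO and WT, scaled krt4 was 5.44, 1.05, 0.828 and 4.67, and krt8 7.19, 1.06, 0.806 and 5.63. In that order grhl3 was 14.6, 12.9, 11.4 and 43.7, and epcam 35.0, 17.7, 25.4 and 21.7. Not every enveloping layer marker followed the sum, as krt92 was 1.63, 4.68, 3.53 and 0.905. The median log2 ratio of the 4 retained yolk syncytial layer markers was -0.95 in KO / WT and 1.34 in KO_FL / KO. Over all retained genes these medians were -0.19 and 0. In KO_dN and in KO, 1 enveloping layer marker (cyt1) and 1 yolk syncytial layer marker (apoa1a) were listed at 0. The sum over 71 cytosolic ribosomal protein genes was 401.8 in KO_FL, 279.2 in KO_dN, 210.7 in KO and 815.7 in WT, and over 13 mitochondrially encoded genes 939.7, 815.6, 721.0 and 2500.7. Both sums were thus highest in WT, where zar1 was lowest. The ribosomal sum also differed among the mutant groups, with both KO_FL and KO_dN between KO and WT. The median log2 ratio of the retained ribosomal genes was 0.78 in KO_FL / KO and -0.65 in KO_FL / WT. It was 0.26 in KO_dN / KO and -1.29 in KO_dN / WT. The part of these genes in the zar1 difference was not tested. Of 9 matched markers of ovarian somatic cells, 1 was retained, a CYP11A1 identifier, and the summed FPKM of the 9 was 3.12 in KO_FL, 0.798 in KO_dN, 1.27 in KO and 8.98 in WT. gsdf and STAR were listed at 0 in all groups, and the 7 vitellogenin genes, which encode yolk proteins, summed to at most 0.768 FPKM.

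The genes beside zar1 were low in all groups. In the order of protein-coding genes of RefSeq's GRCz12tu assembly, used only for neighbourhood because the files were made on another build, zar1 lies between fryl and slc10a4. fryl stood at 1.12 FPKM in KO_FL, 1.06 in KO_dN, 1.102 in KO and 5.63 in WT, and slc10a4 at 0.182, 0.258, 0.304 and 0.0423 in the same order. slc10a4 was thus also higher in the mutant groups, at levels under 1 FPKM. In that assembly 0 genes overlap zar1, mos or buc, 2 overlap zar1l and 1 each overlaps dazl, ddx4 and celf1. Whether the authors' counting used strand is not stated in these sources, so reads of these 4 genes could include those of an overlapping gene.

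The profiles nearest to the other retained genes belonged to genes of many kinds, given here as a description over 4 values each. Nearest to ddx4 were U2AF2, RRM1 and PACSIN2 (distances 0.04, 0.05 and 0.05), and nearest to buc tomm34, RASA1 and bach2a (0.03, 0.04 and 0.05). Nearest to dazl were POGLUT3, NMD3 and si:ch73-90k17.1 (0.05, 0.06 and 0.07), and nearest to celf1 mid1ip1l, zgc:171927 and MRPL2 (0.08, 0.09 and 0.09). U2AF2, a splicing factor gene, stood at 22.8 FPKM in KO_FL, 8.86 in KO_dN, 15.6 in KO and 85.8 in WT, and mid1ip1l at 11.4, 7.29, 11.4 and 25.9 in the same order.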

How the data were processed

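The deposited values were FPKM, which the authors computed from ribosome footprint libraries of 8 samples. Per the submitters' processing notes, the build was Zv9 and the tools were Cufflinks 2.2.1, TopHat2 2.1.1, Bowtie, Trimmomatic 0.36 and cutadapt 1.13, whose settings these sources do not give. Per the series design text, each of the 4 files was made from both replicates of a group. The files named 33737 identifiers. The WT file repeated 101 of them and lacked 3, and these were left out of all groups. Groups came from sample titles.

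FPKM were scaled with Python 3.11.15 (pandas 2.3.3, numpy 2.4.6) by median of ratios, using the 3177 genes that reached 1 FPKM in every group, with a pseudocount of 1 added after scaling. The scaling was run on simulated data, made from 1 profile with a set factor per group and a limited set of genes changed in KO only. In the real data 12.2% of retained genes were higher and 20.4% lower in KO / WT. That run therefore cannot show how well the scaling holds here. Without error estimates a gene was counted at 2-fold or more. Named genes were the 7 members, the 2 highest and 2 lowest of each list that are not members and the 3 nearest profiles of each retained member. Gene symbols were taken from a name table that matched 21863 identifiers; members are written in lower case, and others as the table has them. The members and lists were chosen with earlier results of these data known.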

Additional observations from a re-analysis of the deposited data

How the results depend on the processing

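Ratios were recomputed under 11 alternatives, and with TPM centred on the median gene, which was chosen after seeing the data. The zar1 ratio to WT stayed past 2-fold in all 3 mutant groups under every one that scaled or centred the values, at 3.06 to 5.26 in KO_FL, 2.89 to 5.06 in KO_dN and 2.99 to 5.18 in KO, and as deposited it was 3.07, 1.90 and 2.69. Among all identifiers above 0, zar1 lay at percentile 98.2 in KO_FL, 97.9 in KO_dN and 98.2 in KO, against 75.02 in WT. celf1 depended on the scale: its KO_dN / WT ratio was -1.67 as deposited, against 1.00 scaled. The signs of the zar1l and mos ratios to WT turned positive with deposited FPKM centred on the median gene, and the zar1l KO / WT ratio was -2.14 at a pseudocount of 0.1. The dazl ratios to WT were negative as deposited, and those of ddx4 and, in KO_dN / WT, of buc were positive with quantile normalization. As deposited, medians of the retained members were -1.09 in KO_FL / WT, -1.78 in KO_dN / WT and -1.22 in KO / WT. Over all retained genes they were -1.71, -2.36 and -1.95 in the same order. Of the 5 members, 4 were lower in each, where 75.4%, 87.2% and 79.3% of all retained genes were lower. On the same values 1 was higher in KO_dN / WT (2.17% of all) and 2 in KO_FL / KO_dN (23.2%). Of the 5, 2 were higher in KO / WT with TPM, TPM centred on the median gene and quantile normalization. Of all retained genes 18.5%, 18.5% and 18.2% were higher there. In KO_FL / WT 2 were higher with TPM (20.6% of all). In KO_dN / WT 1 was higher with deposited FPKM centred on the median gene (19.3% of all). It was also 1 with scaling that left out the 50 highest genes (12.3%) and with a pseudocount of 5 (5.46%). The KO_dN / WT median was 1.00 at a filter of 5, which kept 3 members, against -0.29 for all genes kept. The causes were not tested, except that a filter of 5 changes which members count. No paired analysis was possible because each group has 1 value per gene, and for the same reason no replicate could be left out. The unknown number of reads limits zar1l and mos most.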
